A study of Rattus norvegicus with 24 samples.

Results

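The genes described here are those whose expression in the rat rostral posterior hypothalamic (rPH) region stood on a higher level after 3 and 7 loud noise exposures than after 0 or 1, with little difference between 3 and 7. Of the 32883 genes in the count table, 12415 had a mean CPM (the count divided by the total of the rat's library, times 1000000) of 5 or more over 20 rats, and 10103 of these had log2 group means that differed by 0.15 or less between 3 and 7 exposures. These were ordered by their step, which is the lower of the log2 means after 3 and 7 exposures minus the higher of the log2 means after 0 and 1. The first 100 were taken and 1 gene set aside in advance was dropped, leaving 99 members. Symbols were known for 51 of them and only the Ensembl identifier for the other 48. The group means of these 20 rats chose the members, so their levels and differences in those rats are a description and not a test.

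All rats were adult male Sprague-Dawley animals that were placed daily in sound-attenuating chambers on 7 consecutive days. Every rat had blood drawn from the tail under gentle restraint at the end of the last session. Tissue was taken 24 h after that session. The control (C) group heard only background noise, while the AS, RS3 and RS7 groups received 1, 3 and 7 sessions of loud white noise, always ending on the same day. Each group had 6 rats, of which 5 per group entered the choice of members. The other 4 (rat 20 of the C, 18 of the AS, 8 of the RS3 and 1 of the RS7 group) were dropped by the study for few reads or for adapter sequence and high GC content. Library totals ranged from 8087697 to 16947298 in the 20 retained rats and from 4744531 (AS rat 18) to 14299345 in the 4 others. In the retained rats a member had a median of 436.5 counts per rat and never fewer than 10. The tissue was a block cut by hand around the mammillothalamic tracts. Transcripts listed as markers of hypothalamic neurons (Avp, Oxt, Trh, Sim1) and of the dorsal thalamus (Lef1, Rora) were detected in it. In such bulk tissue, more cells of a type and more RNA per cell cannot be told apart.

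The rPH region takes part in neuroendocrine, cardiovascular and thermal responses to stressors, and it has been linked to the decline of hormonal responses when the same stressor is repeated. Neurons can alter their excitability through the channels that set the resting and firing properties of the membrane, through receptors for inhibitory and modulatory transmitters, and through release of calcium from internal stores, which is followed by calcium entry across the plasma membrane. The members with symbols include genes of each of these kinds, together with synaptic adhesion molecules, signaling enzymes and transcription factors.

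The promoters of the members were examined because members that move together could share short regulatory sequences. RefSeq gave a single promoter on the GRCr8 build, a different build from that of the counts, for 39 of the 51 members with symbols. In the 250 bases before the start of each gene both strands were searched for the core ACANNNTGT of the glucocorticoid response element, the cyclic AMP response element TGACGTCA, the E-box CACGTG, the TATA box TATAAA and the TCF/LEF site ATCAAAG. The first and second of these were found in 0 of the 39 members, against 5.55% and 1.72% of 24206 rat promoters. The E-box was found in 1 member (5.86% of all promoters), the TATA box in 2 (13.3%) and the TCF/LEF site in 1 (3.14%). Among 467 other genes that have a symbol and 5 CPM or more, the shares were 1.5% for the glucocorticoid core, 2.36% for the cyclic AMP response element, 8.57% for the E-box, 5.57% for the TATA box and 1.5% for the TCF/LEF site. The members' windows had a median GC content of 64.8%, against 63.6% in those 467 genes and 52.4% in all promoters. The 4 windows with a match are printed because they are the only member promoters in which a searched motif occurred, with the match in capitals, on the strand of the gene and ending 1 base before its start. They are Ctxn3 (chr18:53129255-53129504, plus strand, TCF/LEF site on the opposite strand), Crtac1 (chr1:251182690-251182939, minus strand, TATA box), Plvap (chr16:18231280-18231529, minus strand, TATA box) and Mcf2 (chrX:143550815-143551064, minus strand, E-box).
Ctxn3: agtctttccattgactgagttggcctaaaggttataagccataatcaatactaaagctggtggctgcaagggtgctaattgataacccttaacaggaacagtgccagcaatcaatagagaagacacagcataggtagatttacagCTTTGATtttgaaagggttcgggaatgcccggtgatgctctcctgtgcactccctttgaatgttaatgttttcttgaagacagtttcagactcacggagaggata
Crtac1: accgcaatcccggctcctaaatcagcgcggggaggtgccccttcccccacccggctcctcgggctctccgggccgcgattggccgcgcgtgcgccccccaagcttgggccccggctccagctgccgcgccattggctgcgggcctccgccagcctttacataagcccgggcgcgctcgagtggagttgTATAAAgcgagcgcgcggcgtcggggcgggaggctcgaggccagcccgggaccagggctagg
Plvap: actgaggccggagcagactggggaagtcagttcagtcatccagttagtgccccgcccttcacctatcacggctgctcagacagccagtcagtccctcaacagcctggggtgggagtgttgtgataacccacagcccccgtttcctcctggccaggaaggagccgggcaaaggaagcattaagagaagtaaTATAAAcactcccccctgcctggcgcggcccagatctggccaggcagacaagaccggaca
Mcf2: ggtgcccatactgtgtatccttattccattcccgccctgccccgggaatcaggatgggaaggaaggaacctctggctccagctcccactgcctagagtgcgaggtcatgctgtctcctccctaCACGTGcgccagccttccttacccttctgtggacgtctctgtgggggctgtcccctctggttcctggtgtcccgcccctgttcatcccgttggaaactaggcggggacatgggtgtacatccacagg
A match shows only that these letters occur in the window. No motif was shared by more than 2 members.

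The steps of the 99 members ranged from 0.20 to 0.90 on the log2 scale with a median of 0.24, and 10 members had a step of 0.4 or more. The median step of all 10103 genes that could have been chosen was -0.08. The ratio of the mean CPM of the 10 repeatedly exposed rats (RS3 and RS7) to that of the 10 others (C and AS) lay between 1.16 and 1.96, with a median of 1.26. A step down of at least the same size was found in 61 of the 10103 genes. The limit of 100 was not a natural break. The members just inside it were ENSRNOG00000014302, ENSRNOG00000033729 and Trnp1, whose product regulates nuclear organisation in neural progenitors, with steps of 0.1979, 0.1972 and 0.1963. The genes just outside it were ENSRNOG00000026753, ENSRNOG00000002192 and Rictor, a subunit of the second target of rapamycin complex, with steps of 0.1958, 0.1956 and 0.1952.

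**Figure D1:**
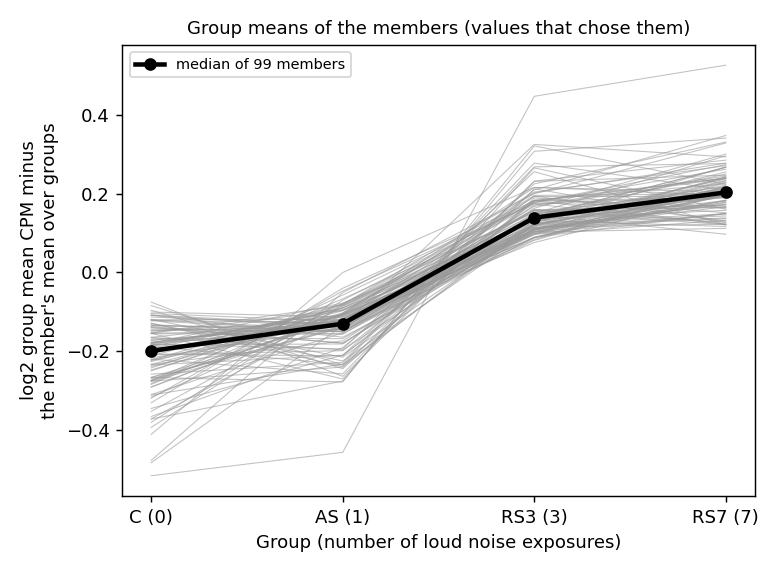
Log2 group mean CPM of each of the 99 members, minus the member's own mean over the 4 groups, against the group with its number of exposures (grey lines, 1 per member; black line and points, their median). Every line is higher at RS3 and RS7 than at C and AS, as the choice of members fixed, and the line that starts lowest and ends highest is Ctxn3.

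Ctxn3 (ENSRNOG00000022957), which encodes a small membrane protein of the cortexin family found in neurons, had the largest step, 0.90. Of the 39 member promoters searched, its promoter was the only one with a TCF/LEF match, a site found in 3.14% of all promoters. It was at 8.63, 8.76, 9.40, 11.0 and 28.1 CPM in the 5 C rats and at 7.90, 12.6, 14.0, 14.4 and 19.8 CPM in the AS rats. The values were 16.2, 26.0, 26.4, 28.0 and 31.9 CPM in the RS3 rats and 24.2, 25.02, 25.2, 26.7 and 34.7 CPM in the RS7 rats. All 5 RS7 rats lay above all 5 AS rats, but C rat 23, at 28.1 CPM, lay within the range of the repeatedly exposed rats, and RS3 rat 7, at 16.2 CPM, lay within that of the AS rats. The group means were 13.2 ± 8.42 (C), 13.7 ± 4.25 (AS), 25.7 ± 5.81 (RS3) and 27.1 ± 4.30 (RS7) CPM (SD, n = 5).

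Mdfic (ENSRNOG00000053787), whose product carries a MyoD family inhibitor domain, had a step of 0.58. It was at 3.85, 4.20, 5.31, 7.19 and 7.38 CPM in the C rats, 5.31 to 6.88 in the AS rats, 7.17, 8.24, 8.45, 10.2 and 10.7 in the RS3 rats and 6.23, 8.08, 8.10, 10.7 and 12.6 in the RS7 rats. Only RS7 rat 4 and RS3 rat 7 of the repeatedly exposed rats did not exceed all 10 C and AS rats. The next largest steps belonged to members without a symbol, ENSRNOG00000009448 (0.50) and ENSRNOG00000056314 (0.49). The first of these had means of 10.9 ± 4.6 (C) and 11.5 ± 1.17 (AS), 16.3 ± 4.88 (RS3) and 16.4 ± 3.86 (RS7) CPM.

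**Figure D2:**
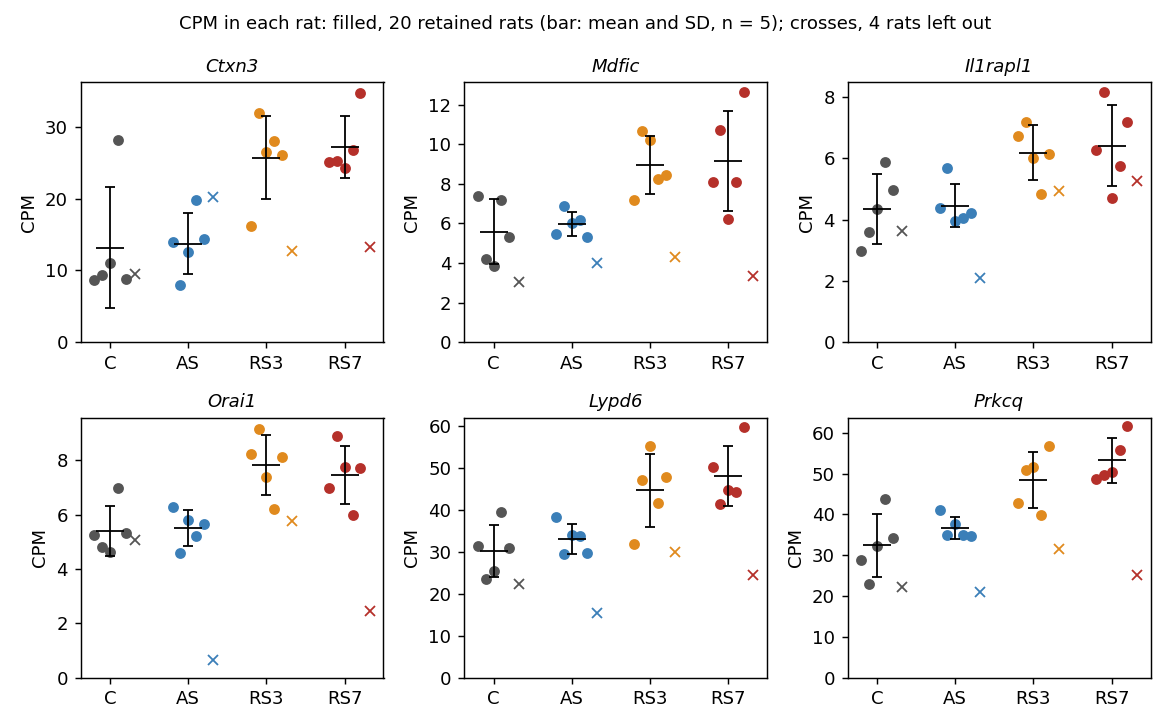
CPM of the 6 members with symbols and the largest steps in every rat, by group (filled points, 20 retained rats; horizontal bar and whiskers, mean and SD of 5 rats; crosses, the 4 rats that did not choose the members). In the genes other than Ctxn3, 7 to 9 of the 10 RS3 and RS7 points lie above every C and AS point, against 2 in Ctxn3, where C rat 23 is at 28.1 CPM, and the cross of AS rat 18 lies below all AS points except for Ctxn3, where it is at 20.2 CPM.

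Of the 31 genes of the ion channel list 6 were members, more than of any other list. They include Orai1, Itpr1, Unc80, Scn1a and Kcna2. Of all 768 genes with a symbol, 51 were members. The lists were drawn up with earlier results of these data known, so the counts of members per list single out no theme. Itpr1 encodes the inositol trisphosphate receptor that releases calcium from the endoplasmic reticulum, and Orai1 the plasma membrane pore through which calcium enters once those stores are empty. Orai1 (ENSRNOG00000001336, step 0.44) was at 4.62, 4.82, 5.26, 5.31 and 6.99 CPM in the C rats and 4.59, 5.21, 5.65, 5.82 and 6.30 in the AS rats. It was at 6.22, 7.39, 8.12, 8.25 and 9.15 CPM in the RS3 rats and 5.98, 6.98, 7.73, 7.74 and 8.89 in the RS7 rats, and C rat 23 again held the highest value of its group. Itpr1 (ENSRNOG00000007104, step 0.25) had means of 251 ± 59.0 (C), 285 ± 28.4 (AS), 339.7 ± 49.0 (RS3) and 365 ± 54.2 (RS7) CPM (SD, n = 5), and 8 of the 10 repeatedly exposed rats lay above all 10 others. Unc80, a subunit of the sodium leak channel complex that sets resting excitability, went from 164 ± 21.1 and 162 ± 10.6 CPM in the C and AS groups to 195 ± 21.6 and 203 ± 15.2 CPM in the RS3 and RS7 groups. Kcna2 and Scn1a encode pore-forming subunits of a voltage-gated potassium and a voltage-gated sodium channel. In the 4 rats that did not choose the members, described below, 4 of the 6 members of this list had a log2 fold change above 0 by edgeR.

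The receptor list held 3 members. Lypd6 (ENSRNOG00000038980, step 0.43) encodes a lipid-anchored protein that modulates nicotinic acetylcholine receptors. Its values were 23.6, 25.3, 30.8, 31.3 and 39.4 CPM in the C rats, 29.6, 29.7, 33.7, 34.0 and 38.3 in the AS rats, 31.8, 41.5, 47.0, 47.8 and 55.2 in the RS3 rats and 41.4, 44.2, 44.8, 50.2 and 59.7 in the RS7 rats. All RS7 rats and 4 of the 5 RS3 rats lay above every C and AS rat. Gabrd (step 0.31), the delta subunit of extrasynaptic GABA receptors that carry tonic inhibition, had the wider spread, with 41.5 ± 8.62 (C), 49.9 ± 10.2 (AS), 61.8 ± 14.7 (RS3) and 65.1 ± 15.8 (RS7) CPM, and 5 of the 10 repeatedly exposed rats lay above all others. Without RS3 rat 9 its step was 0.17. Htr2c, a serotonin receptor, was near the limit with a step of 0.20 and had 196 ± 29.5, 194 ± 19.5, 225 ± 28.2 and 227 ± 27.6 CPM in the C, AS, RS3 and RS7 groups.

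Of the signaling enzymes, Prkcq (ENSRNOG00000019057, step 0.40) encodes the theta isoform of protein kinase C. It was at 22.9, 29.0, 32.3, 34.3 and 43.8 CPM in the C rats, 34.7, 34.9, 35.0, 37.7 and 41.0 in the AS rats, 39.9, 42.9, 50.9, 51.6 and 56.7 in the RS3 rats and 48.8, 49.6, 50.4, 55.8 and 61.7 in the RS7 rats. The RS7 rats did not overlap either the C or the AS rats, whereas 2 RS3 rats lay below C rat 23. Inpp4b, a phosphatase of membrane inositol lipids, and Ttbk2, a tau tubulin kinase needed for primary cilia, had smaller steps of 0.21 each, and that of Inpp4b was 0.11 without RS3 rat 9. Pdp1 (step 0.32), the phosphatase that activates the mitochondrial pyruvate dehydrogenase complex, went from 184 ± 36.6 and 192 ± 28.8 CPM (C, AS) to 238 ± 39.7 and 259.95 ± 40.6 CPM (RS3, RS7). Necab3 (step 0.31), a neuronal calcium-binding protein, went from 55.9 ± 13.0 and 64.7 ± 5.20 to 80.8 ± 9.39 and 80.2 ± 14.1 CPM, and RS7 rat 4, at 58.0 CPM, was the only repeatedly exposed rat below the highest AS rat.

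Among ligands, receptors and adhesion molecules, Wnt9b (ENSRNOG00000003807, step 0.32), a secreted Wnt ligand, was the only member of the Wnt and catenin list. Its means were 41.2 ± 9.13 (C), 45.9 ± 6.40 (AS), 57.2 ± 12.2 (RS3) and 62.9 ± 11.6 (RS7) CPM, and without RS3 rat 9 its step was 0.19. Acvr1c (step 0.36), a type I receptor of the transforming growth factor beta family, went from 8.65 ± 2.18 and 8.80 ± 0.414 to 11.3 ± 2.33 and 12.5 ± 2.88 CPM. Il1rapl1 (ENSRNOG00000029663, step 0.47), a synaptic adhesion molecule of the interleukin receptor family, was at 2.98, 3.59, 4.33, 4.96 and 5.89 CPM in the C rats, 3.94 to 5.69 in the AS rats, 4.82, 6.01, 6.15, 6.73 and 7.20 in the RS3 rats and 4.72, 5.74, 6.27, 7.18 and 8.17 in the RS7 rats. RS3 rat 11 and RS7 rat 4 were the lowest rats of their groups in this gene. Slitrk6, a synaptic adhesion molecule with leucine-rich repeats, had a step of 0.25, which was 0.16 without C rat 21. Galnt14 (step 0.39), an enzyme that starts mucin-type glycosylation, went from 13.0 ± 2.47 and 13.0 ± 1.41 to 17.0 ± 1.65 and 17.7 ± 2.77 CPM.

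The transcription factor list held 4 members. Etv1, an ETS family factor, had 128 ± 10.8 (C), 128 ± 9.81 (AS), 151 ± 18.3 (RS3) and 162 ± 8.96 (RS7) CPM, and RS3 rat 11 was the only repeatedly exposed rat that did not exceed all C and AS rats. Rorb, an orphan nuclear receptor of sensory thalamus and cortex, had 22.4 ± 3.23, 21.8 ± 2.53, 26.8 ± 2.98 and 28.2 ± 2.43 CPM. Nhlh2, a basic helix-loop-helix factor of hypothalamic neurons, and Zmat4, a zinc finger protein, had steps of 0.25 and 0.21. The lists of chromatin and RNA regulators, synaptic vesicle and active zone genes and cytoskeletal genes held 0 members, although the mean levels in RS3 and RS7 both lay above those in C and AS for 14 of 31, 20 of 25 and 19 of 25 of their genes. The same held for 23 of 31 ion channel genes, 21 of 28 receptor genes, 34 of 42 signaling genes and 26 of 41 transcription factor genes. All genes with symbols come from the study's own lists of differentially expressed genes on these rats, so these counts are not independent evidence of a direction.

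Within the 20 rats, the quasi-likelihood test of edgeR, at a Benjamini-Hochberg adjusted p of 0.05, called 42 of the 99 members higher in the repeatedly exposed rats than in the others, with 1.22% of all 16202 genes tested called higher. For the single comparisons the count of members called higher was 0 for C versus RS3 (0% of all genes), 5 for C versus RS7 (0.111%), 0 for AS versus RS3 (0%), 20 for AS versus RS7 (1.19%) and 0 for RS3 versus RS7 (0%). At an unadjusted p under 0.05, 52 members were higher in C versus RS3 (1279 of all genes), 52 in AS versus RS3 (383) and 2 in RS3 versus RS7 (598), and the DESeq2 Wald test called 5, 0 and 0 members higher there. The rule had used all these contrasts, so nothing is read from the counts. The counts of 42, 5 and 20 moved when single rats were left out. So did the counts over all genes, which follow in parentheses. In C versus RS7 the 5 members (18 of all genes) became 29 (137) without C rat 23 and 27 (283) without RS7 rat 4. Leaving out RS3 rat 11 gave 9 (56), AS rat 17 gave 3 (12) and RS3 rat 10 gave 2 (11). Any of RS7 rat 2 (11), RS3 rat 12 (9) and AS rats 14 (9) and 15 (9) gave 1. Any of RS7 rats 3 (0), 5 (7) and 6 (0) and C rats 19 (0) and 21 (0) gave 0. In AS versus RS7 the 20 (192) became 10 without RS7 rat 3 (65) or 6 (73) and 11 without AS rat 16 (70). It became 7 without AS rat 14 (45) and 6 without AS rat 17 (41). In C versus RS3 the 0 became 2 without C rat 23 (9). For repeated exposure the 42 (198) became 65 (370) without RS3 rat 11. The count was 16 (60), 18 (73) and 17 (69) without RS7 rats 3, 5 and 6. It was 15 (49), 21 (82) and 19 (68) without RS3 rats 9, 10 and 12. Without AS rats 14, 16 and 17 it was 16 (43), 21 (86) and 15 (45). Without C rats 19, 21 and 22 it was 18 (62), 17 (52) and 23 (149).

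The C and AS groups did not show a steady order in the members. With CPM by library total, 69 of the 99 members had a higher mean in the AS than in the C group, with a median log2 difference of 0.06 for the members and 0.07 for all genes of 5 CPM or more. With library sizes scaled by TMM, 55 members were higher, with medians of 0.01 for both, and edgeR called 0 members higher in C versus AS (0% of all genes, with 743 higher at an unadjusted p under 0.05; DESeq2 also 0). In the RS7 group 81 members were higher than in the RS3 group by library total and 91 with TMM. The members' median difference was 0.07 and 0.11, against -0.05 and 0.01 for all genes of 5 CPM or more. With TMM the largest difference of a member was 0.19, beyond the limit of 0.15 that the choice set by library total.

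No member separated the 10 repeatedly exposed rats from the 10 others in full (0.00805% of genes of 5 CPM or more did, which is 1 gene). A median of 5 and at most 9 of the 10 repeatedly exposed rats lay above all 10 C and AS rats, and 15 members reached 8 or more. All RS7 rats lay above all C rats in 14 members (1.39% of genes) and above all AS rats in 14 (1.39%). All RS3 rats lay above all C rats in 3 (1.5%) and above all AS rats in 10 (0.33%). The spread within groups was wider in the members than in most genes, with a median SD of log2 CPM of 0.24 against 0.13 over all genes of 5 CPM or more, and the step exceeded the member's own SD in 54 of the 99. Choosing genes for large differences between group means in itself favours a wide spread.

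The members did not vary independently from rat to rat. Within the C group, rat 21 was the lowest of the 5 rats in 80 of the 99 members and rat 23 the highest in 74. RS3 rat 11 was the lowest of its group in 68 members and RS3 rat 9 the highest in 59, and RS7 rat 4 was the lowest in 67 and RS7 rat 5 the highest in 58. In the AS group rat 17 was the lowest in 55, and rats 13 and 15 were each the highest in 38.

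To place each rat without using its own values, the members were chosen again from the other 19 rats, and the median over those members of the rat's log2(CPM + 0.5) minus the midpoint of the lower and the higher groups was taken. A positive value puts the rat on the side of the RS3 and RS7 groups. The C rats lay between -0.65 and 0.13 (median -0.14), the AS rats between -0.25 and 0.08 (median -0.09), the RS3 rats between -0.19 and 0.19 (median 0.11) and the RS7 rats between -0.08 and 0.44 (median 0.27). Thus 15 of the 20 rats lay on the side of their own groups, while C rat 23, AS rats 13 and 15, RS3 rat 11 and RS7 rat 4 lay on the other side. RS7 rat 4, at -0.08, changed sides with the scaling. It lay at 0.03 with TMM-scaled library sizes, and by library total the median of all genes lay at -0.11 in this rat, 0.04 below its members. The ranges of all 4 groups overlapped.

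The same order of rats appeared in transcripts listed as markers of the dorsal thalamus, which lies dorsal to the hypothalamus. Of 20 thalamic markers, 14 had an identifier and none was at 0 in a retained rat. Lypd6, Rorb and Zmat4 were members, and the other 11 were summed. Not all of the 11 are confined to the thalamus, Slc17a6 and Lhx9 among them. Slc17a6 alone had means of 567, 624, 707 and 740 CPM in the C, AS, RS3 and RS7 groups. The sum of the 11 was 1311 to 1849.6 CPM in the C rats (median 1652), 1518 to 1981 in the AS rats (1708), 1562 to 2167 in the RS3 rats (1989) and 1862 to 2479 in the RS7 rats (2104), and all RS7 rats lay above all C rats. In each group the rat with the lowest sum was the one in which most members were lowest (rat 21 in the C, 17 in the AS, 11 in the RS3 and 4 in the RS7 group), and rats 23, 13, 9 and 5 had the highest sums of the same groups. All 11 had higher means in both RS3 and RS7 than in C and AS, but these markers too have symbols only because the study listed them on these rats. Their part in the members' step was not tested.

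**Figure D3:**
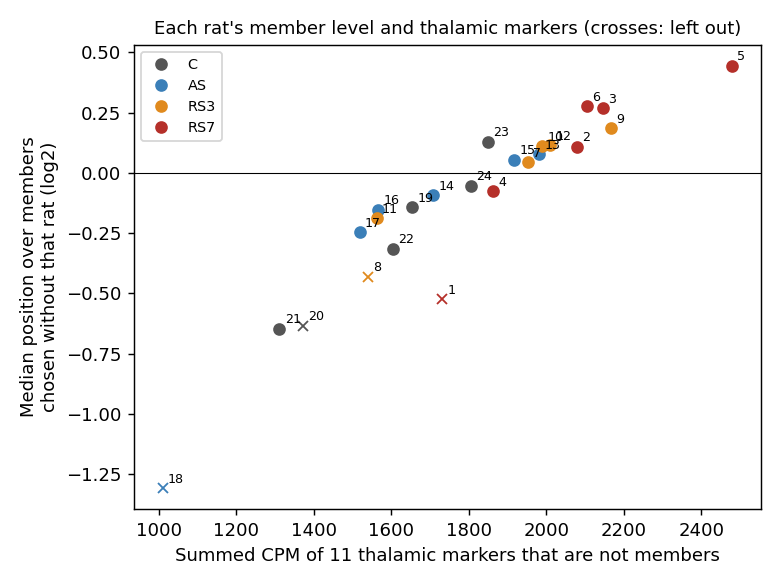
Median position of each rat over members chosen without it (log2 units, vertical axis; above 0 is the side of the RS3 and RS7 groups) against the summed CPM of 11 thalamic markers that are not members (horizontal axis), with rats numbered and coloured by group and crosses for the 4 rats left out. The rats form a single rising band from C rat 21 (1311 CPM, -0.65) to RS7 rat 5 (2479 CPM, 0.44), and the crosses for RS3 rat 8 and RS7 rat 1 lie below it.

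The 8 of 15 hypothalamic and preoptic markers with an identifier summed to 89.4 to 396 CPM in the C rats, 131 to 442 in the AS rats, 51.0 to 235 in the RS3 rats and 41.5 to 93.5 in the RS7 rats. The 6 of 8 markers of GABAergic neurons summed to 609.7 to 1017 CPM (C), 723 to 1041 (AS), 497 to 701 (RS3) and 483 to 661 (RS7). Both lists ran opposite to the members, with lower means in RS3 and RS7 than in C and AS for 8 of 8 and 6 of 6 genes. The markers in these lists also have symbols only because the study listed them on these rats, so their shared direction is not independent evidence. Some spreads were wide, with 30.9 ± 35.4 CPM for Avp and 47.5 ± 53.5 CPM for Oxt in the C rats (mean and SD). The 3 of 6 astrocyte markers summed to 1891 to 2133 (C), 1783 to 2003 (AS), 1779 to 1955 (RS3) and 1712 to 1934 (RS7) CPM. Their genes went different ways, with mean CPM of 1049, 938, 889 and 924 for Aqp4, 214, 193, 226 and 247 for Slc1a2 and 736, 788, 743 and 689 for Slc1a3 in the C, AS, RS3 and RS7 groups. Of 6 vascular markers 3 had an identifier. Col4a1 and Col4a2 summed to 99.3 to 121 CPM (C), 96.1 to 116 (AS), 86.8 to 113 (RS3) and 86.7 to 97.3 (RS7), while Plvap, the endothelial fenestra protein, was itself a member with 8.44 ± 1.33 and 7.90 ± 0.889 CPM in the C and AS groups and 9.97 ± 2.09 and 10.9 ± 1.45 CPM in the RS3 and RS7 groups. The oligodendrocyte and microglia lists had 0 genes with an identifier. The part of these cells in the step was not tested.

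The 4 rats that the study dropped are the only samples that did not choose the members. With 1 rat per group, they allow the difference between repeatedly exposed and other rats to be measured anew. RS3 rat 8 and RS7 rat 1 were compared with C rat 20 and AS rat 18 by edgeR. This contrast compares averages and is not the step. In the 20 rats that chose the members, the like contrast had a members' median of 0.34. The log2 fold change was above 0 in 87 of the 99 members, against 48.4% of all 15118 genes tested. Its median was 0.40 in the members and -0.01 in all genes. Members varied together from rat to rat in the retained rats. With 1 rat per group, counts of members here are therefore not counts of separate observations. The log2 fold change ranged from -0.50 to 1.19 among the members, and 44 of the 48 without a symbol and 43 of the 51 with one were above 0. The test called 0 members and 0 genes at an adjusted p of 0.05, and every member had an adjusted p of 1. At an unadjusted p under 0.05, 18 members were higher (0.622% of all genes). That count was 1 without RS7 rat 1 (15 of all genes), 5 without RS3 rat 8 (37), 17 without AS rat 18 (203) and 39 without C rat 20 (1671). The DESeq2 Wald test called 0 genes and had 14 members higher at that p. These libraries were of lower quality, and AS rat 18 had the fewest counts, 4744531. In this rat Orai1 was at 0.632 CPM and Trnp1 at 0.422 CPM, so very few reads stand behind such values.

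Ctxn3, which had the largest step, did not have this direction. It was at 9.48 CPM in C rat 20 and 20.2 in AS rat 18, against 12.7 in RS3 rat 8 and 13.2 in RS7 rat 1, and its log2 fold change was -0.47 (standard error 0.55). Mdfic was at 3.03 and 4.00 CPM in the C and AS rats and 4.29 and 3.36 in the RS3 and RS7 rats (-0.04, standard error 0.43), and its mean difference in log2(CPM + 0.5) by library total was 0.11, so that no direction could be read. Among the 22 members named by rule, 18 were above 0, the exceptions being Ctxn3, Mdfic, Nhlh2 and Htr2c, and 7 had an unadjusted p under 0.05 in edgeR, namely Wnt9b, Pdp1, Gabrd, Necab3, Itpr1, Inpp4b and Slitrk6.

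Wnt9b was at 28.6 and 10.5 CPM in C rat 20 and AS rat 18 and at 36.0 and 34.5 in RS3 rat 8 and RS7 rat 1, and the log2 fold change by edgeR was 0.74 (standard error 0.28, adjusted p = 1). Gabrd was at 26.5 and 16.9 against 35.9 and 39.5 CPM (0.65, standard error 0.22), and Necab3 at 28.1 and 10.7 against 34.0 and 34.1 CPM (0.70, standard error 0.27). In all 3 genes both repeatedly exposed rats lay above both others. Itpr1 was at 168 and 86.4 against 204 and 206 CPM (0.56, standard error 0.20). Scn1a was at 307 and 226 against 306 and 292 CPM and Kcna2 at 363 and 333 against 383 and 359 CPM. In neither gene did both repeatedly exposed rats lie above both others. Lypd6 was at 22.3 and 15.4 against 30.1 and 24.5 CPM (0.35, standard error 0.20) and Prkcq at 22.2 and 21.1 against 31.6 and 25.2 CPM (0.18, standard error 0.26), so that in these 2 members both repeatedly exposed rats lay above both others with a difference within 2 standard errors.

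**Figure D4:**
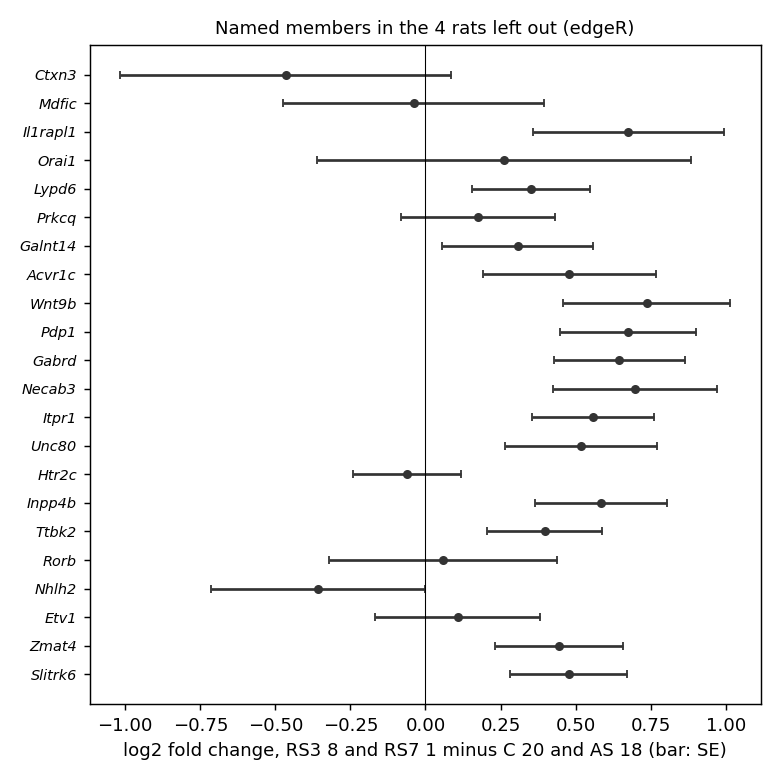
Log2 fold change (points) with standard error (bars) of the 22 named members in the 4 rats left out, RS3 rat 8 and RS7 rat 1 minus C rat 20 and AS rat 18, by edgeR, in the order in which the genes were named. 18 points lie right of 0, and Ctxn3 (-0.47) and Nhlh2 (-0.36) lie farthest to the left.

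With 1 rat per group, a step above 0 needs both repeatedly exposed rats to lie above both others. By library total both repeatedly exposed rats lay above both others in 59 of the 99 members (9.96% of all genes of 5 CPM or more), and with TMM-scaled library sizes in 65 (16.6% of all genes). By library total 81.9% of all genes were higher on average in these 2 rats, and 90.3% were higher in RS3 rat 8 than in AS rat 18, so each pair of rats was also set against the median of all genes. In RS3 rat 8 minus C rat 20, the members' median was 0.20 above that of all genes and 84 members exceeded it. The excess was 0.31 (73 members) for RS3 rat 8 minus AS rat 18, 0.41 (87 members) for RS7 rat 1 minus C rat 20 and 0.61 (83 members) for RS7 rat 1 minus AS rat 18. For AS rat 18 minus C rat 20 it was -0.10 (41 members), and for RS7 rat 1 minus RS3 rat 8 it was 0.19 (72 members). In absolute level by library total all 4 rats lay below the midpoint of the 20 rats, the C rat at -0.63, the AS rat at -1.31, the RS3 rat at -0.43 and the RS7 rat at -0.52. The median of all genes lay at -0.25, -0.94, -0.25 and -0.51 in the same rats. With TMM-scaled library sizes the members lay at -0.48, -0.68, -0.26 and -0.06 in these rats. Both repeatedly exposed rats were thus still on the side of the C and AS groups. By library total, and so with the same shift of all genes, the thalamic sum was 1372 and 1009.8 CPM in C rat 20 and AS rat 18 and 1539.6 and 1732 CPM in RS3 rat 8 and RS7 rat 1. The hypothalamic sum was 199 and 80.3 CPM in the first pair and 173 and 92.0 CPM in the second, and the GABAergic sum 868 and 494 CPM in the first and 793 and 528 CPM in the second, so neither of these lists separated the pairs.

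**Figure D5:**
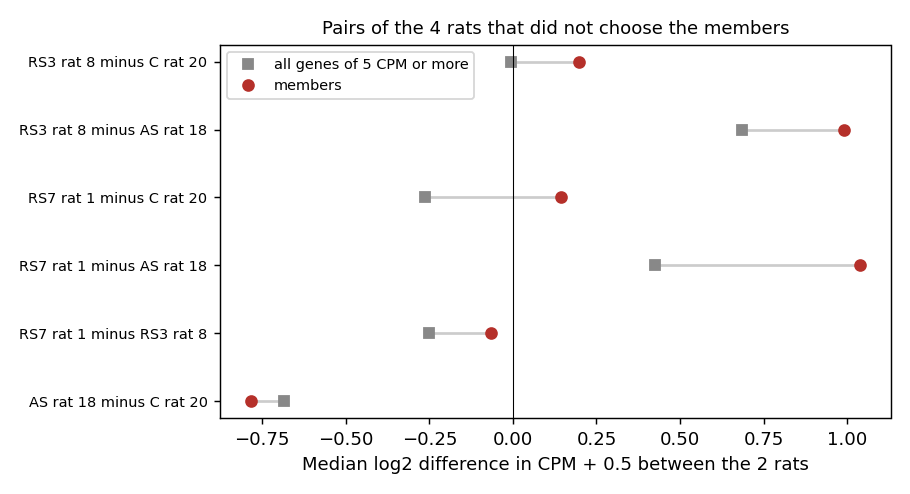
Median log2 difference in CPM + 0.5 between 2 of the 4 rats left out, over the 99 members (red circles) and over all genes of 5 CPM or more (grey squares), for each of the 6 pairs of rats. The members lie right of all genes in the 4 pairs of a repeatedly exposed rat with a C or AS rat, by 0.20 to 0.61. They also lie right, by 0.19, for RS7 rat 1 minus RS3 rat 8, both repeatedly exposed, and left for AS rat 18 minus C rat 20.

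Membership itself depended on the rats and on the scaling. Leaving out 1 of the 20 rats and choosing again returned between 59 (without RS3 rat 9) and 95 (without C rat 19) of the 99 members. Chosen again without every one of the 20 rats were 15 members, of which 11 had symbols: Mdfic, Il1rapl1, Orai1, Galnt14, Necab3, Osbpl3, Bok, Rorb, Nhlh2, Unc80 and Etv1. Ctxn3 was not among them. TMM-scaled library sizes returned 65 members, and group medians in place of means returned 47. The step stayed above 0 in all 99 members with TMM or DESeq2 scaling and with all 24 rats, and in 98 with group medians and without RS3 rat 7, which the choice of members for a large step in the same rats favours.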

How the data were processed

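RNA-seq libraries of 24 rats were analysed. The authors trimmed the reads, mapped them to the rn6 genome and deposited raw counts per Ensembl gene without normalization, and the submitters' processing notes name Trimmomatic 0.36, HISAT2 2.0.5, Subread featureCounts, DESeq2 and R 4.0.2. Strandedness is not given in the sources used here, so overlapping genes could have exchanged reads. Symbols came from the identifiers of the study's supplementary gene list (768 genes), read from page images. The members, the lists of genes and the markers were chosen with earlier results of these data known. Genes were named by rule: the 12 members with symbols and the largest steps, up to 4 members of each function list, the 3 genes on either side of the limit of 100, and 2 identifiers. Members that hold a promoter motif, were chosen again every time or complete a short list were named after their values were seen. The short glucocorticoid core was chosen after a longer form had matched 0 members. 1 gene that the rule names is not reported here.

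CPM was computed from library totals. Counts were tested in R 4.3.3 with edgeR 4.0.16 (filterByExpr with a minimum count of 10, TMM, quasi-likelihood test, Benjamini-Hochberg adjustment), the 20 rats in 1 fit of 4 groups and the 4 others in a separate fit. DESeq2 1.42.0 was an alternative. Both fits were run on simulated counts in which genes varied independently. The members varied together from rat to rat, so the simulation does not cover that setting. Each rat is a separate animal. 0 columns of the table were left unused.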

Additional observations from a re-analysis of the deposited data

Results flagged for a closer look

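Among the 22 named members, 88 groups of 5 rats were checked for a rat far from the others, and 5 were found by Dixon's ratio of the gap to the range (critical value 0.71 for 5 rats). Chance alone gives about 1 in 20 groups. Ctxn3 was at 28.1 CPM in C rat 23, with the next C rat at 11.0 CPM, and at 34.7 CPM in RS7 rat 6, with the next at 26.7 CPM. Il1rapl1 was at 5.69 CPM in AS rat 14, with the next at 4.37 CPM. Acvr1c was at 7.50 CPM in RS7 rat 4, with the next at 13.2 CPM, and Slitrk6 was at 70.6 CPM in RS3 rat 11, with the next at 89.8 CPM.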

How the results depend on the processing

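No paired analysis was possible because the replicate numbers are rat numbers that no 2 groups share. In the 20 rats, the DESeq2 Wald test called 77 members higher in the repeatedly exposed rats against 42 in edgeR (404 of 15678 genes against 198 of 16202), 41 in C versus RS7 (292 of 14189), 41 in AS versus RS7 (400 of 15182) and 5 in C versus RS3 (19 of 11211), and edgeR called 22 with all 24 rats (82 of 16164). Leaving out each rat gave 15 (without RS3 rat 9, with 49 of all genes called higher) to 65 (without RS3 rat 11, with 370). The rule chose 65 of the 99 members again with TMM-scaled library sizes, 63 with DESeq2 size factors, 47 with group medians, 62 with a floor of 1 CPM and 59 to 95 with a rat left out. In the 4 other rats, leaving out each in turn left 80 to 88 members above 0 and 0 to 9 called higher, the 9 arising without C rat 20 with 1 member called lower and 178 genes called higher and 291 lower of 15448, where the lone AS rat is assumed to vary like the others. Without RS7 rat 1, 80 members were above 0. The cause of these changes was not tested. With DESeq2 size factors, no filter and the DESeq2 Wald test, 86 or 87 members were above 0. Of 20 rats, 15 lay on the side of their groups with another pseudocount of 0.1 and 16 with TMM, where RS7 rat 4 changed sides. Over the settings run, the step moved by over 1.5 times in Wnt9b, Gabrd and Inpp4b without RS3 rat 9, in Slitrk6 without C rat 21 and in Nhlh2 with all 24 rats (0.16 against 0.25). The members were chosen for a large step in the same rats, so the steps that stayed above 0 are no sign of stability. At 5 CPM in a library of 4744531 counts few reads stand behind a value.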
